A study of Mus musculus with 12 samples.

Results

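Hemoglobin genes and their erythroid companions were followed across the colon libraries of this series: the adult alpha globins Hba-a1 and Hba-a2, the adult beta globins Hbb-bs and Hbb-bt, the heme enzyme gene Alas2 and the red cell anion exchanger gene Slc4a1. They were chosen by their measured values, because globin genes and Alas2 rose with dextran sulfate sodium (DSS) in floxed mice and not in mice with the myeloid deletion. The choice named 7 genes, of which 6 of the 54532 genes in the table were analysed, and Ahsp was not analysed here. All 6 were among the 24102 genes that passed the filter on low values, set at 3 libraries with an FPKM of 0.1 or more. Slc4a1 passed with 4 libraries, 3 of which were the colitic Tmem173fl/fl ones. The choice used all 4 groups, the untreated ones as baselines, so the members' differences in every comparison are given as a description with no test.

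RNA from whole colon was sequenced in 4 groups of 3 libraries. Tmem173fl/fl mice carried a floxed Tmem173 gene, which encodes STING, and no Cre. Tmem173iΔmye mice carried in addition Cre-ERT2 in Lyz2, a tamoxifen-inducible recombinase meant to delete the gene in myeloid cells and not in others. The study also used dendritic cells and macrophages grown from the bone marrow of these mice as STING-knockout cells. Mice of both genotypes were 6 to 8 weeks old and had 5 tamoxifen injections, so the controls carried the floxed alleles and had the drug too. Colitic mice drank DSS, which injures the colonic epithelium, for 7 days and then water for 1 day, and untreated mice drank water. The colitic Tmem173iΔmye libraries carry replicate numbers 1, 2 and 5. The samples of a group were chosen at random by the study, no label ties a library to a named animal, and the tests measure the spread between these libraries. Whether the mice were perfused to remove blood is not given in the sources used here.

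Red blood cells carry hemoglobin, a tetramer of alpha and beta globin chains that each hold a heme group. Globin mRNA is made in erythroblasts of the bone marrow and spleen, and reticulocytes, the young red cells released into blood, still contain it although they have lost their nucleus. Alas2 makes the erythroid form of the first and rate-limiting enzyme of heme synthesis, and Slc4a1 makes band 3, the main integral protein of the red cell membrane. The colon wall has no known red cell production in the adult, and DSS colitis is known for bleeding into the gut. Since these are bulk samples, fewer cells of a type and less RNA per cell cannot be told apart.

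Depth differed little, from 13823237 to 18718915 counts per library. Values are CPM (counts scaled to library size with TMM factors) unless FPKM, which also divides by gene length, is named. Between colitic genotypes the log2 difference of Tmem173 itself was -0.28 (SE 0.26, edgeR adjusted p 0.602), so its loss was not detectable in these whole-colon counts per gene. The study itself reported a smaller rise of Tmem173 mRNA in the inflamed colon of Tmem173iΔmye mice. It also reported loss of STING in CD11b-positive cells by immunofluorescence. Libraries differed in 2 other respects. By Xist and Y-linked counts, 3 libraries were female in pattern, namely each untreated replicate 3 and colitic Tmem173iΔmye replicate 5. The summed level of 12 pancreas genes was 103 to 667 CPM in 7 libraries and 2269 to 12540 CPM in the other 5, which were replicate 3 of untreated Tmem173fl/fl, replicate 2 of untreated Tmem173iΔmye, replicates 1 and 2 of colitic Tmem173fl/fl and replicate 1 of colitic Tmem173iΔmye mice.

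The members rose together from near 0 in the untreated Tmem173fl/fl colon to 225 ± 92.0 CPM in sum in the colitic Tmem173fl/fl colon, against 4.99 ± 1.38 CPM without DSS (SD, n = 3 each). In colitic Tmem173iΔmye mice their sum was 27.0 ± 2.71 CPM. The untreated Tmem173iΔmye mice were uneven, at 5.10, 61.3 and 14.5 CPM, so that 1 untreated library stood above all colitic libraries of its genotype. These sums were made mostly of Hba-a1 and Hbb-bs.

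Hba-a1 (ENSMUSG00000069919), an adult alpha globin gene on GRCm38 chromosome 11, 32283511 to 32284465, on the plus strand, has 3 exons in the GENCODE M21 transcript. It was at 1.89, 0.947 and 1.75 CPM in replicates 1, 2 and 3 of untreated Tmem173fl/fl mice and at 82.8, 135 and 57.8 CPM with DSS. The Tmem173iΔmye libraries held it at 1.88, 25.8 and 3.97 CPM without DSS and at 11.4, 10.6 and 10.3 CPM with DSS. The colitic Tmem173fl/fl libraries were the highest, the colitic Tmem173iΔmye libraries were nearly equal to each other, and untreated Tmem173iΔmye replicate 2 lay above them.

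Hba-a2 (ENSMUSG00000069917), its copy at 32296489 to 32297298 on the same strand, lies 12023 bases further along chromosome 11. It was at 0.379, 0.338 and 0.250 CPM in untreated Tmem173fl/fl mice and at 7.96, 12.8 and 4.90 CPM in colitic ones. Tmem173iΔmye mice had 0, 1.08 and 0.601 CPM without DSS and 1.57, 0.746 and 1.88 CPM with DSS. Its order of libraries within the colitic Tmem173fl/fl group was that of Hba-a1, with replicate 2 highest and replicate 3 lowest.

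Hbb-bs (ENSMUSG00000052305), an adult beta globin gene on chromosome 7, 103826534 to 103828096, on the minus strand, was the most abundant member per length. It was at 3.56, 2.71 and 1.63 CPM in untreated Tmem173fl/fl mice and at 79.7, 135 and 71.5 CPM with DSS. Its levels in Tmem173iΔmye mice were 2.49, 27.7 and 8.59 CPM without DSS and 12.8, 10.8 and 13.8 CPM with DSS. The floxed groups did not overlap, and the Tmem173iΔmye groups did because of untreated replicate 2.

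Hbb-bt (ENSMUSG00000073940), the second adult beta globin gene at 103812524 to 103813996, lies 12537 bases from Hbb-bs. It was at 0.606, 0.0677 and 0.0626 CPM in untreated Tmem173fl/fl mice, where 8, 1 and 1 counts were seen, and at 12.9, 25.1 and 9.53 CPM in colitic ones. Levels in Tmem173iΔmye mice were 0.303, 3.77 and 0.841 CPM without DSS and 1.21, 0.809 and 1.27 CPM with DSS. The colitic Tmem173iΔmye libraries overlapped the untreated ones.

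Alas2 (ENSMUSG00000025270) lies on chromosome X, 150547375 to 150570638, on the plus strand, with 11 exons. It was at 0.151, 0.203 and 0.376 CPM in untreated Tmem173fl/fl mice and at 9.26, 14.7 and 8.17 CPM in colitic ones. In Tmem173iΔmye mice it was at 0.303, 2.04 and 0.361 CPM without DSS and at 1.995, 0.871 and 0.668 CPM with DSS. The 3 libraries of female pattern held Alas2 at 0.376, 0.361 and 0.668 CPM, the first of them the highest of its group and the others not, and the part of this X-linked position in the values was not tested.

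Slc4a1 (ENSMUSG00000006574), on chromosome 11, 102348824 to 102366203, on the minus strand, has 20 exons and was the least abundant member. It had 0, 0 and 1 counts in untreated Tmem173fl/fl mice and 45, 132 and 10 counts with DSS, or 2.44, 6.25 and 0.681 CPM. In Tmem173iΔmye mice it had 2, 16 and 3 counts without DSS and 0, 2 and 4 counts with DSS. The pooled ratio of colitic to untreated Tmem173fl/fl counts, 187 against 1, was 175 with an exact 95% interval of 31.0 to 6945, which covers counting error only. Colitic Tmem173fl/fl replicate 2 alone gave most of these counts.

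**Figure D1:**
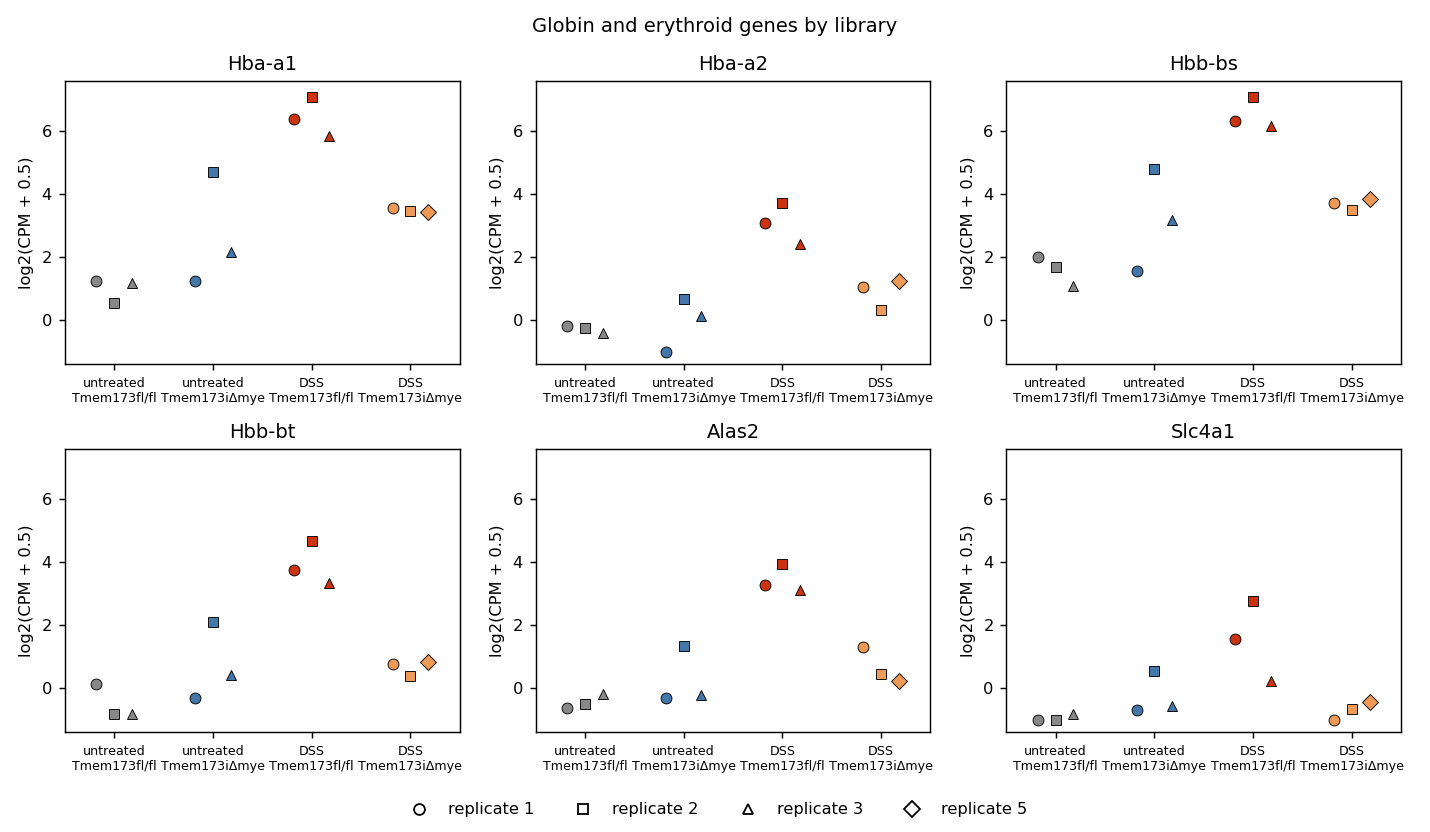
Level of each member in every library, as log2(CPM + 0.5), by group (x axis) and replicate (symbol). The 3 colitic Tmem173fl/fl libraries are highest for the 4 globins and Alas2, while untreated Tmem173iΔmye replicate 2 lies above the other 2 untreated libraries of its genotype in all 6 panels.

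The alpha genes are near copies, and so are the beta genes. The GENCODE M21 transcripts of Hba-a1 and Hba-a2 share an unbroken run of 415 identical bases, and those of Hbb-bs and Hbb-bt one of 430 bases, whereas the longest run shared by Hba-a1 and Hbb-bs was 14 bases. Of the 50-base windows of the Hba-a2 transcript, 86.9% also occur in Hba-a1, and 58.3% of those of Hbb-bt occur in Hbb-bs. How reads that fit both copies were counted is not given in the sources used here, so the split between copies is uncertain and the sum of each pair is the safer value.

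The stretches before the starts of these genes are shown because the members moved together. The 120 bases before the RefSeq start (GRCm38.p6) were searched on both strands for CACCC, for CCAAT, for TATAA and for GATAA, letters known from globin and erythroid promoters. RefSeq start windows were found for 5 of the 6 members, Slc4a1 excepted. Below, in the direction of transcription, the matched letters are in capitals, and bases inside the first exon of the GENCODE transcript are left out. Hba-a2 is chr11:32296372-32296488 on the plus strand, Hbb-bs is chr7:103827929-103828048 on the minus strand and Alas2 is chrX:150547297-150547374 on the plus strand.
Hba-a2: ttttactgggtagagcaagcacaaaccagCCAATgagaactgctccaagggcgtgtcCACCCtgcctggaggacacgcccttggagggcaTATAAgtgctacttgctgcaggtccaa
Hbb-bs: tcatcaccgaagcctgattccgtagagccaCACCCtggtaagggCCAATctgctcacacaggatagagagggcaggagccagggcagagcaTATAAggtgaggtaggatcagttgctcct
Alas2: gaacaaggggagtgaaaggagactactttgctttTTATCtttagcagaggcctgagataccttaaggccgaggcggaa

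All 4 globin windows held CACCC as well as CCAAT and TATAA. That combination occurred in 0.688% of the 32851 RefSeq windows of the same length, and CACCC alone in 31.7%, CCAAT in 21.3% and TATAA in 11.9%. The window of Hba-a1 shares an unbroken run of 117 bases with that of Hba-a2, so these 2 are not separate cases, while the longest run shared by Hbb-bs and Hbb-bt was 14 bases. The Alas2 window held neither CCAAT nor TATAA. It held GATAA, read as TTATC above and present in 10.5% of windows, and CACCC on the other strand 3 times, without overlap and nearer the start than the stretch shown. A match is a description of letters and not a binding site.

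Per length, the members kept a graded order in colitic Tmem173fl/fl mice. Hbb-bs was at 126 ± 45.0 FPKM and Hba-a1 at 114 ± 48.4 FPKM (SD, n = 3 each), which did not differ beyond their spread. Hbb-bt at 22.7 ± 11.7 FPKM and Hba-a2 at 12.96 ± 5.999 FPKM followed and were within 1 SD of each other. Alas2 was at 4.51 ± 1.46 FPKM and Slc4a1 at 0.644 ± 0.585 FPKM. In colitic Tmem173iΔmye mice the order was the same down to Slc4a1 except that Hba-a2, at 2.07 ± 0.859 FPKM, and Hbb-bt, at 1.54 ± 0.353 FPKM, changed places within their spread.

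The fitted DSS difference in Tmem173fl/fl mice was a rise in all 6 members. On the log2 scale it was 5.97 with an SE of 0.38 for Hba-a1, 4.79 with an SE of 0.46 for Hba-a2 and 5.26 with an SE of 0.34 for Hbb-bs. It was 6.13 with an SE of 0.65 for Hbb-bt and 5.46 with an SE of 0.42 for Alas2. The untreated group of Slc4a1 was at the floor of 3 counts or fewer, so its counts and pooled ratio above are given instead. The interval of that ratio leaves out the spread between libraries, whose colitic counts were 45, 132 and 10. In 6 of 6 members the colitic libraries were all above the untreated ones, as in 23.9% of all 24102 genes tested, and in 25.4% they were all below. By edgeR, at an adjusted p under 0.05 and an absolute log2 difference of at least 1, 14.9% of all genes were called higher and 7.61% lower. The choice of members fixed this count, so nothing is read from it.

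In Tmem173iΔmye mice the fitted DSS differences lay on both sides of 0. They were 0.03 with an SE of 0.73 for Hba-a1, 1.30 with an SE of 0.86 for Hba-a2 and -0.05 with an SE of 0.63 for Hbb-bs. For Hbb-bt, Alas2 and Slc4a1 they were -0.58, 0.37 and -1.68, with SEs of 0.76, 0.76 and 1.12. The colitic and untreated libraries overlapped in all 6 members. Over all genes 12.1% had every colitic library above and 9.41% every one below the untreated ones, with 1.48% called higher and 0.597% called lower.

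These values rest on 1 library. Without untreated Tmem173iΔmye replicate 2, the DSS difference in Tmem173iΔmye mice became 1.88 with an SE of 0.42 for Hba-a1, 2.19 with an SE of 1.06 for Hba-a2 and 1.17 with an SE of 0.51 for Hbb-bs. It became 0.93 for Hbb-bt, 1.798 for Alas2 and -0.25 for Slc4a1, with SEs of 0.65, 0.73 and 1.26. In 4 of the 6 members, the exceptions being Hbb-bt and Slc4a1, every colitic library was then above the 2 remaining untreated ones. The share of all genes apart in this smaller set was not computed, and the replicate was left out after its values were seen. Nothing is read from this count. By the fitted differences, a rise with DSS in floxed mice alone was seen in the full set of libraries. Without this replicate the values in Tmem173iΔmye mice were positive except for Slc4a1, and the rise in Tmem173fl/fl mice was larger in either case. Untreated Tmem173iΔmye replicate 2 also held pancreas genes at 2269 CPM, against 117 and 185 CPM in replicates 1 and 3, and that part in the globin values was not tested.

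**Figure D2:**
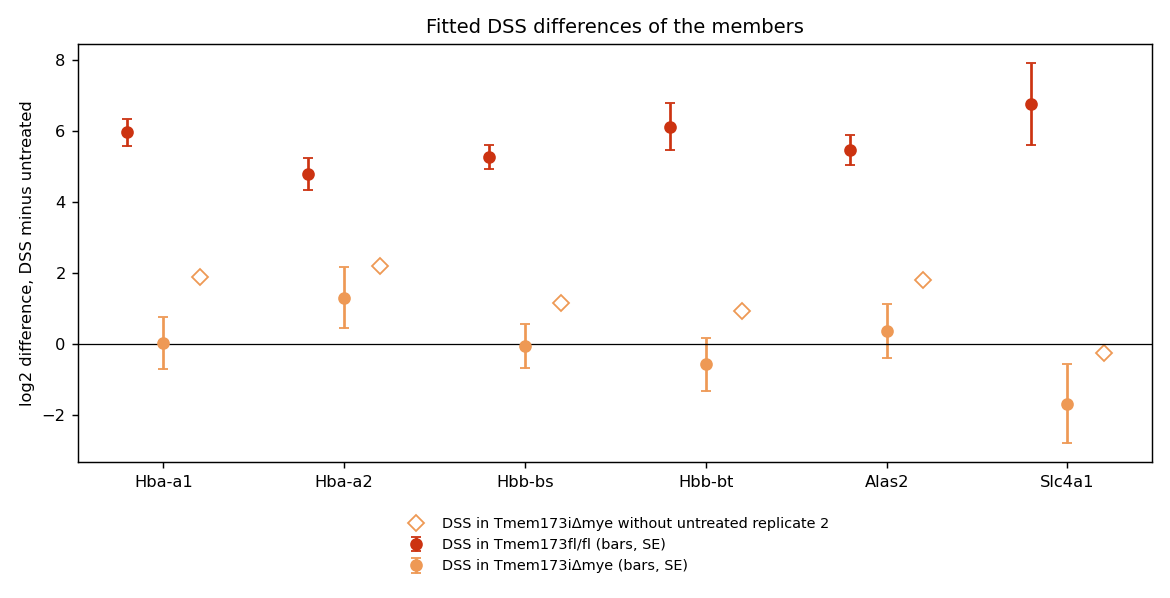
Fitted log2 difference between colitic and untreated libraries for each member in both genotypes, with bars for the SE, and open diamonds for Tmem173iΔmye mice without untreated replicate 2. The differences in Tmem173fl/fl mice run from 4.79 to 6.77, the last for Slc4a1 resting on an untreated group with 1 count, while leaving out the replicate raises all 6 values in Tmem173iΔmye mice.

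Between colitic genotypes all 6 members were lower in Tmem173iΔmye mice, by log2 differences from -4.57 for Slc4a1 to -2.62 for Hba-a2, with SEs from 0.28 to 1.003. In 6 of 6 members every Tmem173iΔmye library was below every Tmem173fl/fl one, as in 14.8% of all genes, while in 12% every one was above. By edgeR 0.822% of all genes were called higher and 1.99% lower. For the interaction, the difference of the DSS effects, the values ran from -8.37 for Slc4a1 to -3.41 for Hba-a2, beside 0.934% of genes called with a DSS effect higher in Tmem173iΔmye mice and 1.61% with one that was lower. These comparisons share the colitic Tmem173fl/fl libraries with the DSS comparison and the choice of members, and are a description. Without untreated Tmem173iΔmye replicate 2, the interaction of Hba-a1 went from -5.87 to -4.03 and that of Alas2 from -5.02 to -3.60, and no member changed sign.

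The comparison of untreated genotypes is made of the baselines that the choice used and is a description too. All 6 members had a positive log2 difference, higher in Tmem173iΔmye mice, at 2.78 with an SE of 0.74 for Hba-a1, 2.31 with an SE of 0.62 for Hbb-bs, 2.77 for Hbb-bt, 1.84 for Alas2, 0.80 for Hba-a2 and 3.82 for Slc4a1. Over all genes edgeR called 0% in this comparison, and 720 of 24102 had an unadjusted p under 0.05. Without Tmem173iΔmye replicate 2 the differences shrank to 0.94 for Hba-a1, 1.09 for Hbb-bs and -0.08 for Hba-a2. The untreated genotypes overlapped in 5 of 6 members, the exception being Slc4a1 at 1 count against 21 in sum. Over all genes 3.67% had every Tmem173iΔmye library above and 3.68% every one below.

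Proportions within the members were read best where globin counts were high. Alpha globin counts made up 49.5%, 48.0% and 43.6% of all globin counts in colitic Tmem173fl/fl libraries and 48.0%, 49.6% and 44.5% in colitic Tmem173iΔmye libraries. In untreated Tmem173iΔmye replicate 2, the untreated library with the most globin counts (974), the share was 46.1%, with a 95% Wilson interval of 43.0 to 49.2%. It was 32.6% in untreated Tmem173iΔmye replicate 3, with 233 globin counts and an interval of 26.9 to 38.9%, below every colitic share. The other 4 untreated libraries, with 59 to 85 globin counts, gave 31.7 to 54.2%. Alas2 made up 4.81%, 4.56% and 5.38% of the sum of Alas2 and globin counts in colitic Tmem173fl/fl libraries, 6.88%, 3.66% and 2.39% in colitic Tmem173iΔmye libraries and 3.37% in that untreated replicate. In the other 5 libraries it made up 2.30 to 9.23%.

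Hbb-bt took 13.9%, 15.7% and 11.8% of the beta globin counts in colitic Tmem173fl/fl libraries and 8.63%, 6.99% and 8.43% in colitic Tmem173iΔmye libraries. The 2 groups did not overlap in this share, which comes from near-identical copies and from the contrast behind the choice. Wilson intervals of the lowest Tmem173fl/fl share, 10.1 to 13.7%, and of the highest Tmem173iΔmye share, 5.46 to 13.4%, overlapped. Hba-a2 took 7.82 to 8.77% of alpha counts in colitic Tmem173fl/fl libraries and 6.56 to 15.5% in colitic Tmem173iΔmye libraries. All intervals cover counting error only.

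**Figure D3:**
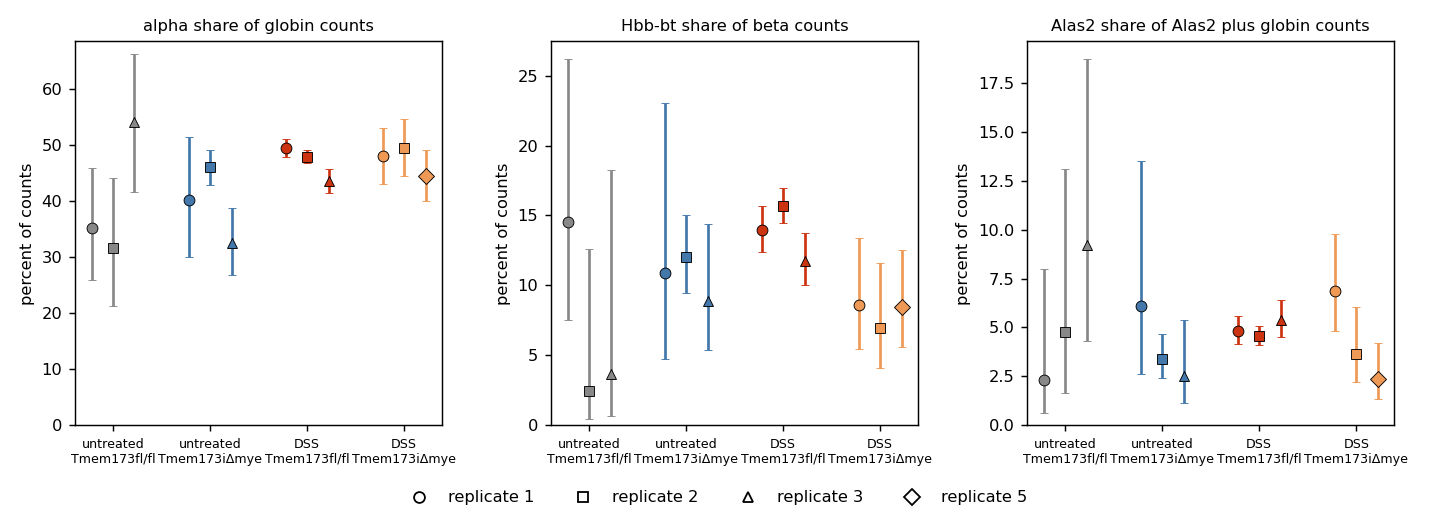
Shares of counts within the members in every library (percent, points with 95% Wilson intervals), by group and replicate symbol: alpha among all globin counts, Hbb-bt among beta globin counts, and Alas2 among the sum of Alas2 and globin counts. The 3 colitic Tmem173fl/fl libraries have the narrowest intervals, with alpha shares from 43.6 to 49.5%.

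Other genes of red cells and their precursors were called in both directions in Tmem173fl/fl mice. Of 59 other erythroid genes on 5 lists, 46 could be tested. With DSS in Tmem173fl/fl mice 10 were called higher and 4 lower, beside 14.9% and 7.61% of all genes, and the median log2 difference was -0.07, against 0.03 over all genes. In Tmem173iΔmye mice 1 was called, higher, with a median of -0.04 against 0.02.

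The embryonic and theta globins, which adult erythroblasts hardly use, were at or near 0. Hbb-bh0, Hbb-bh2 and Hbb-y had 0 counts in all 12 libraries, which allows up to 3 counts each. Hba-x and Hbb-bh1 had 1 count each, Hbq1a 2 and Hbq1b 9, of which 5 came from colitic Tmem173fl/fl replicate 2. None of the 7 passed the filter. Cygb, a globin of fibroblast-like cells rather than red cells, rose with DSS in Tmem173fl/fl mice, from 13.3 to 18.1 CPM up to 61.6 to 99.3 CPM (log2 difference 2.43, SE 0.21, edgeR adjusted p 2.07e-05), while Ngb, a globin of neurons, was not called.

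Some genes of nucleated erythroid precursors, picked after their values were seen, were low in every group. Others on the same lists rose with DSS in Tmem173fl/fl mice, among them 6 of 8 tested factors and receptors, given below. Tfr2, on the same list as Klf1, had 4 counts in untreated and 29 in colitic Tmem173fl/fl libraries. Klf1, the transcription factor that drives beta globin, had 7, 13 and 12 counts in colitic Tmem173fl/fl libraries and 6, 10 and 5 in untreated ones. Klf1 was not called (edgeR adjusted p 0.633). The globin counts of these colitic libraries were 3385, 6503 and 2111, and whether precursors were present was not tested.
Icam4, an erythroblast adhesion gene, had 0 counts throughout. Kel, Epb42, Trim58 and Hemgn, genes of the red cell surface, skeleton and maturation, had from 5 to 17 counts over 12 libraries. Most of these were in the colitic Tmem173fl/fl group: 5 of 5 for Kel, 9 of 15 for Epb42, 6 of 10 for Trim58 and 12 of 17 for Hemgn, and replicate 2, the library with the most globin counts, alone had 4, 6, 6 and 10 of them. These 5 genes did not pass the filter and were not tested.

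Most tested genes on the list of erythroid transcription factors and receptors, which includes Klf1, were higher with DSS in Tmem173fl/fl mice. Of 11 genes, 8 were tested and 6 were called higher, beside 14.9% of all genes. The median log2 difference of the list was 1.93. Some of these genes are used by other blood or vessel cells too, and which cells held them was not tested. Tal1, a factor of blood stem, megakaryocytic and endothelial cells too, rose from 1.21, 1.69 and 0.751 CPM to 7.04, 5.58 and 4.70 CPM, by 2.32 (SE 0.35, edgeR adjusted p 0.000641). Nfe2, a factor of megakaryocytes as well, rose by 2.94 (SE 0.45, edgeR adjusted p 0.000682), and Zfpm1, the partner of GATA factors, by 1.01 (SE 0.25, edgeR adjusted p 0.0104).
Epor, the erythropoietin receptor gene, rose by 1.54 (SE 0.49, edgeR adjusted p 0.0328). Gata1, the master factor of erythroid and megakaryocytic cells, was called at 1, 12 and 8 counts against 0, 0 and 1, with overlapping groups and an edgeR adjusted p of 0.0453. Gata1 was not called by DESeq2, limma or 1 fit of all 12 libraries, nor without any 1 of the 3 untreated libraries, colitic replicate 2 or colitic replicate 3.

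Trim10, a gene needed for terminal erythroid maturation, was called in both genotypes. It was at 0.921, 1.09 and 1.29 CPM in colitic Tmem173fl/fl mice and at 4.99, 1.18 and 2.49 CPM in colitic Tmem173iΔmye mice. With DSS it rose by 2.59 (SE 0.62, edgeR adjusted p 0.00914) in Tmem173fl/fl mice and by 2.96 (SE 0.61, edgeR adjusted p 0.0363) in Tmem173iΔmye mice. The second call was lost without untreated replicate 1, 2 or 3 or colitic replicate 1, which left 2 of 6 fits with it. The interaction of Trim10 was 0.45 (SE 0.98, edgeR adjusted p 0.858), an interval too wide to show a difference or its absence.

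No gene of the heme synthesis list, from which the member Alas2 is left out, was called higher. Of 11 tested, 0 were called higher and 1, Uros, lower with DSS in Tmem173fl/fl mice (log2 difference -1.35, SE 0.20, edgeR adjusted p 0.000576), and the list median was -0.39. Alas1, the form of the Alas2 enzyme in other tissues, was at 26.6 FPKM on average and was not called, at -0.39 with an SE of 0.23. Fech, which inserts the iron, was at 0.15 with an SE of 0.12. Slc25a37, the mitochondrial iron importer mitoferrin, was at 0.94 (SE 0.13, edgeR adjusted p 0.000302), under the limit of 1 for a call, and Alad was at -0.75 with an SE of 0.29.

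Of 15 genes of the red cell membrane and cytoskeleton, 12 were tested and 3 were called higher and 1 lower with DSS in Tmem173fl/fl mice. Gypc, the glycophorin C gene that many tissues use, rose by 1.56 (SE 0.24, edgeR adjusted p 0.000794), Sptb, the beta spectrin gene, by 1.23 with an SE of 0.21, and Add2, an adducin gene, by 1.67 with an SE of 0.29. Tspan33 was lower, at a log2 difference of -1.01 (SE 0.18), and Epb41 was not called, at -0.23.

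Of 15 genes retained in late red cells and reticulocytes, 1 was called higher and 2 lower in the same comparison. Car2, a carbonic anhydrase of red cells and of colonocytes, fell by 1.77 with an SE of 0.17, and Ube2l6, a ubiquitin-like conjugating enzyme gene, fell by 1.78 with an SE of 0.27. The most abundant genes of the list, Car2 at 196 FPKM and Mkrn1, Add1 and Prdx2 at 32.1 to 41.7 FPKM on average, are expressed by many cells, and none of these was called higher, with Prdx2 at -0.80 and Mkrn1 and Add1 at -0.21 and -0.22. Between colitic genotypes Car2 was the only 1 of the 46 erythroid genes called, higher in Tmem173iΔmye mice by 1.34 (SE 0.27, edgeR adjusted p 0.0392). This call was lost without any 1 of the 3 colitic Tmem173fl/fl libraries or colitic Tmem173iΔmye replicate 2 or 5.

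For the interaction edgeR called 0 of the 46 erythroid genes, DESeq2 called 1 and limma 0, and 6 had an unadjusted p under 0.05, as did 4361 of all 24102 genes. Between untreated genotypes edgeR called 0 of the 46, and 0 had an unadjusted p under 0.05. Whether these genes responded to DSS differently in the genotypes was thus not shown in either direction.

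**Figure D4:**
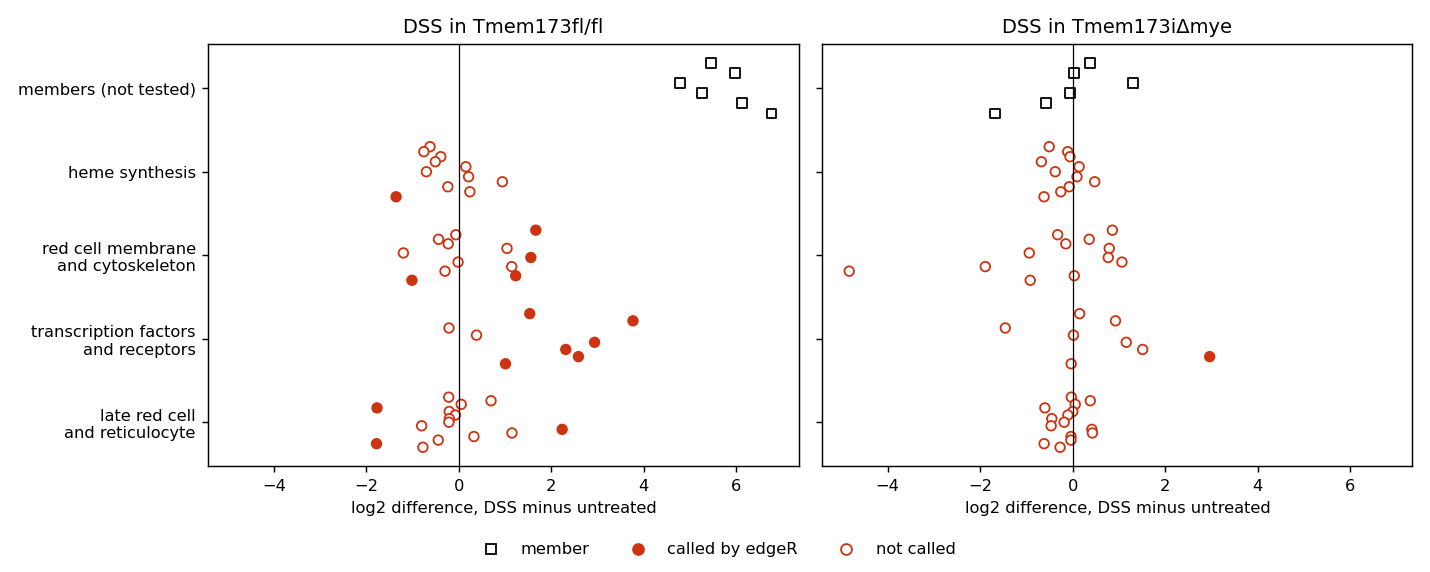
Fitted log2 difference between colitic and untreated libraries (x axis) of every tested gene in 4 erythroid lists and of the 6 members, for Tmem173fl/fl (left) and Tmem173iΔmye mice (right), with filled circles for genes called by edgeR. In Tmem173fl/fl mice 14 of 46 listed genes are filled, 10 to the right and 4 to the left of 0, and the squares for members there run from 4.79 to 6.77.

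Platelet and vessel genes were higher in the colitic Tmem173fl/fl libraries too. Of 12 platelet and megakaryocyte genes tested, 9 were called higher with DSS in Tmem173fl/fl mice, beside 14.9% of all genes. The sum of the list went from 26.4 to 30.8 CPM up to 182 to 244 CPM, of which Itgb3 alone made up 21.2 CPM without and 133 CPM with DSS on average. Pf4, a chemokine stored in platelet granules and also made by macrophages, was at 0.984, 2.50 and 3.69 CPM without DSS and at 40.5, 57.5 and 33.6 CPM with DSS, a rise of 4.24 (SE 0.39, edgeR adjusted p 3.27e-05). Ppbp, another platelet granule chemokine, rose by 6.06 with an SE of 0.69, and Itga2b and Itgb3, the chains of the platelet fibrinogen receptor, by 3.53 and 2.72 with SEs of 0.31 and 0.17. In colitic Tmem173iΔmye mice the platelet sum was 48.1 to 77.9 CPM, and 1 gene, Itgb3, was called, a call lost without any 1 of the 3 untreated libraries or colitic replicate 1.

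In untreated Tmem173iΔmye mice the platelet sum was 27.1, 32.1 and 33.0 CPM for replicates 1, 2 and 3. The 4 globins were at 4.67, 58.3 and 14.0 CPM. Itgb3 alone had a mean of 21.2 CPM in this group, where the mean sum was 30.7 CPM. Ppbp and Clec1b had 2 counts each in the group. The sum there is thus mostly 1 gene and a weak measure of platelets, and nothing about blood is read from it. In colitic mice Itgb3 had a mean of 133 CPM beside a mean sum of 209 CPM in Tmem173fl/fl mice. In colitic Tmem173iΔmye mice these were 46.7 and 62.55 CPM. The same limit thus holds for the colitic sums and for the ratios that follow. Globin counts per platelet-list count were 1.82 in that replicate 2, 0.140 to 0.424 in the other untreated libraries, 0.790 to 1.26 in colitic Tmem173fl/fl libraries and 0.347 to 0.477 in colitic Tmem173iΔmye libraries.

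Of 10 endothelial genes 10 were called higher with DSS in the floxed controls, beside 14.9% of all genes, and the list median was a log2 difference of 2.38. Plvap, a gene of fenestrated vessels, rose by 2.36 (SE 0.25, edgeR adjusted p 7.88e-05), Pecam1 by 2.18, Cdh5, the cadherin of vessel walls, by 2.84, and Tie1 by 2.68. Their sum was 715 to 957 CPM in colitic Tmem173fl/fl libraries, 252 to 485 CPM in colitic Tmem173iΔmye libraries and 167 to 192 CPM in all untreated ones. Globin counts per endothelial count were 0.192 to 0.324 in colitic Tmem173fl/fl libraries against 0.0221 to 0.0360 in untreated Tmem173fl/fl libraries. In Tmem173iΔmye mice they were 0.0557, 0.07003 and 0.108 with DSS and 0.0262, 0.304 and 0.0789 without.

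Of 12 genes that handle free hemoglobin, heme and iron, 7 were called higher with DSS in Tmem173fl/fl mice, beside 14.9% of all genes, and 5 were not called. In Tmem173iΔmye mice 2, Hmox1 and Fth1, were called higher, which became 0 without any 1 of the untreated libraries or colitic replicate 1, 1 without colitic replicate 2 and 5 without colitic replicate 5. Hmox1, the heme oxygenase that breaks heme down, was at 6.89, 5.28 and 6.76 CPM without DSS and at 167, 300 and 85.8 CPM with DSS in Tmem173fl/fl mice, by 4.94 (SE 0.43, edgeR adjusted p 2.15e-05). In Tmem173iΔmye mice it rose by 1.46 (SE 0.27, edgeR adjusted p 0.0237), and it was at 6.67, 9.46 and 7.27 CPM in the untreated libraries for replicates 1, 2 and 3, the highest in replicate 2.
Cd163, the macrophage receptor for hemoglobin bound to haptoglobin, rose by 4.45 with an SE of 0.21 in Tmem173fl/fl mice, and Hp, which encodes haptoglobin, by 6.23 with an SE of 0.39. Fth1, the ferritin heavy chain gene, was called in both genotypes, by 1.94 in Tmem173fl/fl and 1.06 in Tmem173iΔmye mice, while Ftl1, the light chain gene, at 0.45 was under the limit for a call. Lrp1, the receptor for heme bound to hemopexin, rose by 2.04 in Tmem173fl/fl mice. Other leukocyte and tissue lists moved too, beside 14.9% of all genes called higher and 7.61% lower with DSS in Tmem173fl/fl mice. In that comparison 12 of 13 neutrophil genes were called higher, among them Lcn2, S100a8, S100a9 and Retnlg. Of 10 lymphocyte genes (Cd79a, Cd4 and Trac among them) 0 were called, and of 10 colon epithelium genes 7 were called lower and 1, Car1, higher. The part of these cell types in the globin values was not tested.

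**Figure D5:**
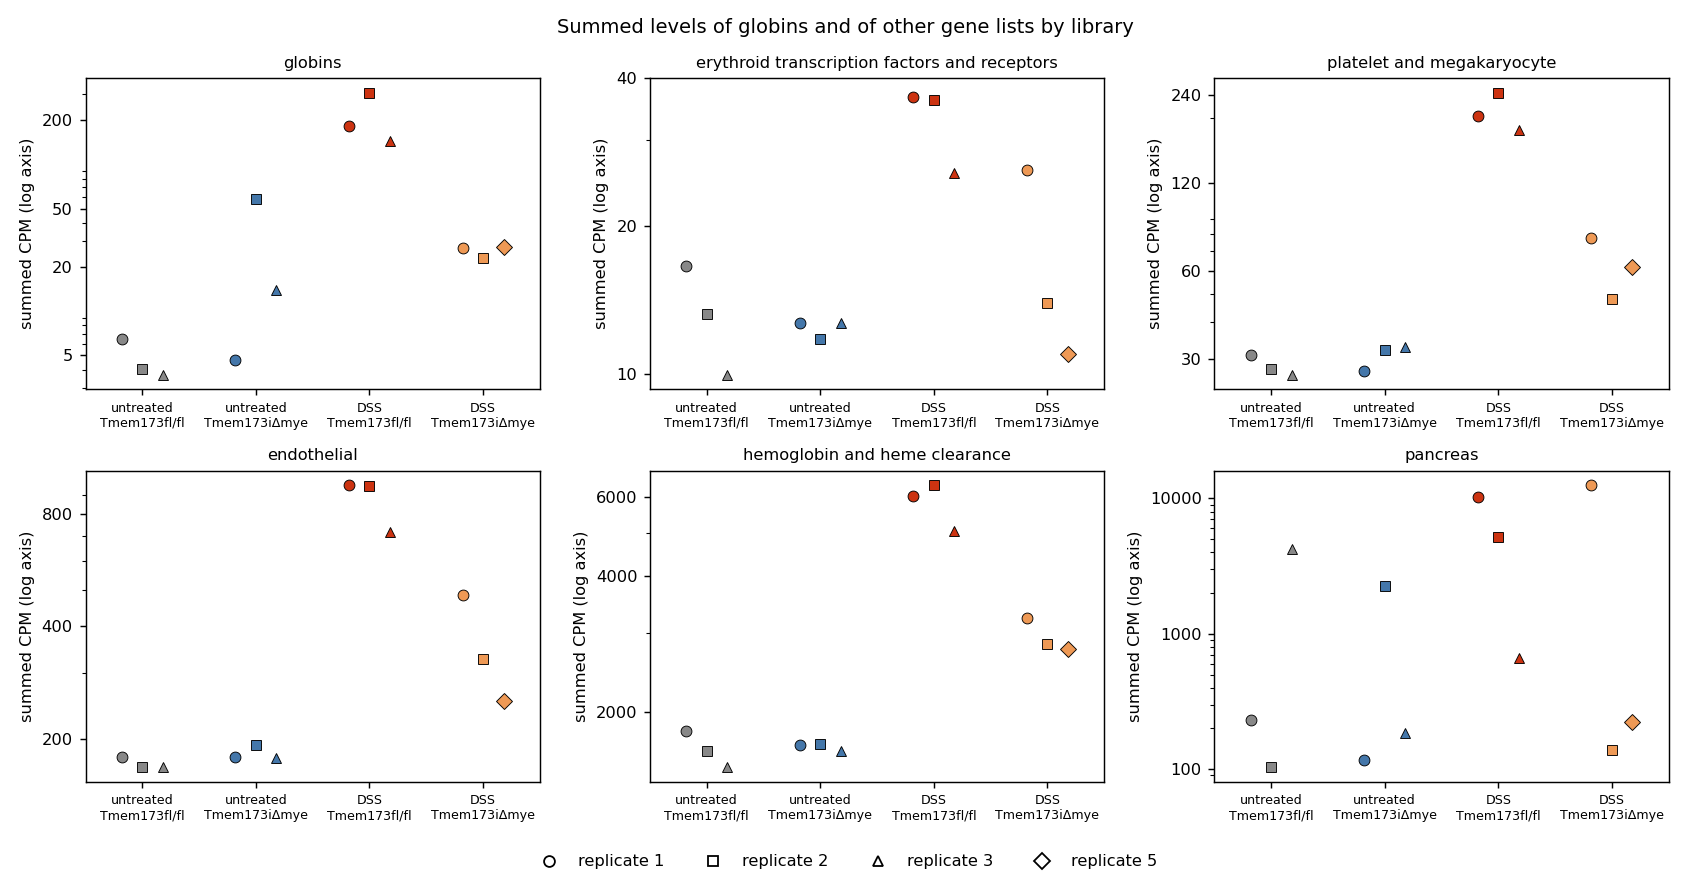
Summed CPM (log axis) of the 4 globins and of 5 gene lists in every library, by group and replicate symbol. The colitic Tmem173fl/fl libraries are highest for all but the pancreas list, except that colitic Tmem173iΔmye replicate 1, at 26.0 CPM, passes the lowest of them, at 25.7 CPM, for erythroid factors. Untreated Tmem173iΔmye replicate 2 lies far above replicates 1 and 3 for globins and pancreas genes.

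Across the 12 libraries, the members were correlated with each other at Pearson r from 0.856 to 0.985 on log2(CPM + 0.5), as a description of libraries that share 4 groups. Of 16156 genes with a mean of at least 1 CPM, the 10 most like the summed globins included Mustn1, Dtnbp1, Nos3, Slc25a4, Gal, Crmp1, Cyp26b1, Anxa5 and Sparcl1, with r from 0.944 to 0.956. None of the 10 is on an erythroid list. Nos3, the endothelial nitric oxide synthase gene, went from 2.01 to 17.3 CPM on average between untreated and colitic Tmem173fl/fl mice and was at 5.03 CPM in untreated Tmem173iΔmye replicate 2, against 2.55 and 3.43 CPM in replicates 1 and 3. Mustn1, a gene of muscle and skeletal tissue, was at 25.4 CPM in that replicate and at 16.3 and 22.2 CPM in the others. Ranked by Spearman's rho instead, 2 of these 10 genes stayed among the first 10, and 137 genes had an r of at least 0.9, so the order among them carries little weight.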

How the data were processed

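Total colon RNA was sequenced as poly(A) libraries. The study describes the purification of colon RNA with lithium chloride under its qPCR method. The authors deposited whole-number counts per gene, with Ensembl identifiers on GRCm38, and FPKM values. Per the submitters' processing notes the tools were CASAVA 1.8, fastp, HISAT2 2.0.5, featureCounts 1.5.0-p3 and DESeq2 1.20.0. The strand setting and the treatment of reads that fit several genes are not given in the sources used here. The deposited FPKM equal counts divided by gene length and 1 constant per library for 100% of values within 1 percent. Deposited columns of log2 fold changes, p-values and group means for the authors' comparisons were not used.

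Counts were tested with edgeR 4.0.16 (quasi-likelihood, TMM) in R 4.3.3 over 24102 genes, with Benjamini-Hochberg adjustment over all of them. The 2 groups compared entered each fit, and all 12 libraries the interaction. A call needed an adjusted p under 0.05 and an absolute log2 difference of at least 1. SE is the size of a difference divided by the root of its F statistic. DESeq2 1.42.0 and limma 3.58.1, on log2(FPKM + 0.1) and log2(FPKM + 1), were alternatives. Tests were tried on simulated counts with 200 genes changed.

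The members and gene lists were chosen with earlier results of these data known. Named were the members, for each list the 4 genes with the highest mean FPKM and every called gene where 5 or fewer were called, and the 10 genes most like the summed globins. Others were named after their values were seen, and some genes that the rule names are not reported here. Genome positions and transcripts are from GENCODE M21, and start sites from RefSeq. With 3 libraries per group the precision is limited, and intervals at 95% cover counting error only.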

Additional observations from a re-analysis of the deposited data

Results flagged for a closer look

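Groups hold 3 libraries each, so single libraries were not tested as outliers. The members were left out here because their interaction rests on the values that chose them. Among the other listed genes, the interaction test of edgeR over all genes put 15 apart, with a DSS effect that differed between the genotypes. Over all genes 0.934% were called higher and 1.61% lower. Of the genes tested, 5 of 10 endothelial, 4 of 12 heme clearance, 2 of 12 platelet and 1 of 13 neutrophil genes were called. So were 2 of 10 colon epithelium genes and 1 of 2 globins of other cells. None of 10 lymphocyte, 11 pancreas and 46 erythroid genes was called. In the heme clearance list the interaction log2 values were -4.49 for Hp, -2.69 for Cd163, -3.40 for Hmox1 and -1.30 for Slc48a1. Among platelet genes they were -3.50 for Pf4 and -1.504 for Itgb3. Among endothelial genes they were -1.70 for Cdh5, -1.71 for Tie1, -1.56 for Vwf, -1.60 for Flt1 and -1.30 for Esam. The value was -1.53 for Cygb and -4.09 for Lcn2, a neutrophil granule gene. Colon epithelium genes had the opposite sign, with 1.86 for Slc26a3, a chloride exchanger gene, and 2.15 for Car4, a carbonic anhydrase gene. A negative value is a smaller rise with DSS in Tmem173iΔmye mice. Their edgeR adjusted p ran from 0.00589 to 0.0396. The number of lower calls moved with single libraries. The 5 endothelial calls ran from 2, without untreated Tmem173fl/fl replicate 2, to 9. The 4 heme clearance calls ran from 1, without untreated Tmem173fl/fl replicate 1, to 6. The 2 platelet calls ran from 1, without untreated Tmem173fl/fl replicate 3 or untreated Tmem173iΔmye replicate 2, to 4, and the 1 neutrophil call ran from 1 to 3. Each highest count was reached without colitic Tmem173iΔmye replicate 1.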

How the results depend on the processing

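With 3 libraries a group, calls of the listed erythroid genes moved with single libraries. The 14 calls for DSS in Tmem173fl/fl mice ran from 10 to 14 when each library was left out, and limma on log2(FPKM + 1) gave 4. The 1 call for DSS in Tmem173iΔmye mice ran from 0 to 3 with a library left out. It became 2 with no filter, 0 with limma at either pseudocount, 4 with the replicate block and 0 without the libraries of female pattern. The 1 call between colitic genotypes ran from 0 to 4 with a library left out. It became 2 with no filter, 3 with DESeq2 and with 1 fit of all 12 libraries, and 0 with limma at either pseudocount, the replicate block, a pancreas covariate added after the data were seen and without the libraries of female pattern. The 0 calls for the interaction became 2 with no filter and 1 with DESeq2, and ran from 0 to 3 with a library left out, the 3 without colitic Tmem173iΔmye replicate 1. Between untreated genotypes, the baselines behind the choice of members, the fits gave 0 member calls, 3 with no filter, 2 with the replicate block and 0 with each library left out, and nothing is read from these counts. Hba-a2, at 0.80 between untreated genotypes, turned to -0.043 with limma on log2(FPKM + 0.1) and ran from -0.0756 to 1.38 with a library left out, the lowest without Tmem173iΔmye replicate 2. The causes were not tested.

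Same-numbered libraries had correlations of their deviations from -0.17 to 0.18, so the numbers do not pair the libraries and the replicate block gives no support. With a library left out, the 10 endothelial, 9 platelet and 7 heme clearance calls for DSS in Tmem173fl/fl mice ran from 10 to 10, 9 to 10 and 7 to 7, and between colitic genotypes the 6, 5 and 4 lower calls ran from 0 to 9, 1 to 4 and 0 to 5. Low counts limit the erythroblast markers and Slc4a1.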
